A study of Mus musculus with 27 samples.

Results

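Hand1 and Hand2 are the 2 HAND genes of the mouse, and this account follows both of them through every library of a study of hearts that carry deletions of Hand2as, a long non-coding RNA gene next to Hand2 that is also called Hand2os1 or Uph. They were taken by name, as 2 of 24025 genes in the table of bulk expression values and 2 of 19020 genes in the single-cell table. The mice were C57BL/6. Allele F removes the whole length of the non-coding gene and allele D removes its 3' distal part. The bulk libraries held poly(A) RNA from 3 F/+ and 3 F/F hearts at embryonic day E11.5, from ventricles of 3 F/+ and 3 F/F embryos at E16.5, and from cardiomyocytes of 8-week-old mice, 5 libraries from +/+, 2 from D/+ and 6 from D/D. A further 2 droplet single-cell libraries held sorted living cells from E11.5 hearts, one from +/+ and one from F/F embryos, each pooled from 6 hearts. All F/+ controls therefore already lacked the non-coding gene on one chromosome, whereas the single-cell control did not. The labels do not say how many founder lines or clones carried each allele, nor that bulk replicates were separate animals, so the p-values below measure the spread between these libraries, which may be technical.

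HAND proteins are basic helix-loop-helix transcription factors that bind DNA as dimers, with each other or with the widely expressed E proteins, and Id proteins oppose them by taking up E proteins without binding DNA. In the developing mouse heart Hand1 is known for the outer curvature of the left ventricle and for the outflow tract, while Hand2 is known for the second heart field, the right ventricle, the outflow tract, the endocardium, the epicardium and the neural crest. Loss of either gene is lethal to the embryo, and the 2 genes are known to overlap in function in the ventricles and outflow tract.

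The genes lie on different chromosomes, Hand1 at 11:57828713-57832147 and Hand2 at 8:57320983-57324517 in RefSeq's annotation of GRCm38.p6. The most alike stretch of their coding sequences is shown here because it is where reads of one gene could most easily be taken for reads of the other. It lies in exon 1 of 2 in each gene and holds the basic helix-loop-helix region. The reference genome (GRCm38) gives chr11:57831277-57831483 on the minus strand for Hand1, which codes for residues 102 to 170 of 216, and chr8:57322225-57322431 on the plus strand for Hand2, which codes for residues 107 to 175 of 217. Capitals mark bases that are the same in both genes.
Hand1: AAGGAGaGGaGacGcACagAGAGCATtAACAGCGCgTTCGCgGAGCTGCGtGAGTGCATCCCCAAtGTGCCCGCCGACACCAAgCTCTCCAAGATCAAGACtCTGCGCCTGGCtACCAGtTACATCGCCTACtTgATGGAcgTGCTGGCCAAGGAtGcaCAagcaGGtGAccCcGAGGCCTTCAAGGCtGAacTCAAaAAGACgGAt
Hand2: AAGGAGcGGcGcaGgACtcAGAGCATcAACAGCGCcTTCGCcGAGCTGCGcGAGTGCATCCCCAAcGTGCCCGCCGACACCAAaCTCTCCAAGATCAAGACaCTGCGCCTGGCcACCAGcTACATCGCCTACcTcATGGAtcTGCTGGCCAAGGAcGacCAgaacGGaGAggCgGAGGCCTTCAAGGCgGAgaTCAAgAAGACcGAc
Of the 69 residues coded here 62 are identical (89.9%), while 170 of the 207 bases are (82.1%), so the proteins are closer than the messages. The longest run of bases shared by the whole transcripts was 17 bases, and 12 bases within the last 500 bases of each, the end that droplet libraries read. Hand1 and Hand2 are treated as separate measurements below.

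The promoter window of Hand2 is shown because the non-coding gene reaches into it. In GRCm38.p6 Hand2os1 lies at 8:57304261-57320859, and its boundary nearer to Hand2 is 124 bases before the start of Hand2. The window chr8:57320733-57321032 on the plus strand runs from 250 bases before the start to 50 bases after it (sequence from RefSeq's annotation). Capitals mark the E-box CATCTG, a form that HAND dimers are known to bind, and the letters GATA on either strand.
Hand2 promoter: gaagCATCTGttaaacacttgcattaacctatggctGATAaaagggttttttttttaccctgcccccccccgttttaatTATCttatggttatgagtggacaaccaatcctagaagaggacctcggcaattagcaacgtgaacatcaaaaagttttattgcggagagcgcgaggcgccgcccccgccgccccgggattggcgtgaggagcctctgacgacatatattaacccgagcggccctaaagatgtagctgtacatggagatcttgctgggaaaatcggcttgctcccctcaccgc
The CATCTG match begins 246 bases before the start, and GATA matches begin 214 bases before it on the plus strand and 171 bases before it on the minus strand. On either strand CATCTG occurs in 5635 of 32851 promoter windows of the same length (17.2%) and GATA in 19023 (57.9%), and a match of letters is a description, not a binding site.

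As a check of the labels, Hand2os1 was listed at 0 FPKM (a level per transcript length and per library) in all 6 E11.5 bulk libraries, controls included, so it checks nothing at that stage. At E16.5 it was 0.81, 0.37 and 1.40 FPKM in the F/+ ventricles and 0 in all 3 F/F ventricles. At 8 weeks it was between 6.9 and 13.48 FPKM in 4 libraries labelled +/+ and 0 in replicate 5, 5.25 and 6.17 in D/+, and between 0 and 2.67 in D/D. The library labelled +/+ replicate 5 therefore went against its label in this respect, and the comparisons whose value it moves most are given without it too. In the single cells 1 UMI (a unique molecular identifier, counting 1 captured transcript) of Hand2os1 came from the library labelled +/+ and 9 from that labelled F/F, which is against the labels' order. Allele F is described as removing the whole gene, and where those reads lie is not given. Directions between those 2 libraries are given as between libraries so labelled. Nor is it stated that reads were counted by strand, so reads of Hand2 and of an RNA antisense to it could not be told apart.

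Which level each gene had at each stage was read first. At E11.5 Hand1 was 21.23, 33.92 and 12.49 FPKM in the F/+ hearts and 19.75, 29.92 and 33.46 FPKM in the F/F hearts. The F/F values lay inside the range of the F/+ values, and the controls differed among themselves by more than the groups did. Hand2 was 58.62, 77.45 and 86.7 FPKM in the F/+ hearts and 75.87, 79.11 and 69.24 FPKM in the F/F hearts, again inside the range of the controls. Per transcript length Hand2 exceeded Hand1 in all 6 hearts, and Hand1 made up between 12.6% and 32.6% of the summed HAND level. The lowest Hand1 share and level belonged to F/+ replicate 3, the heart with the highest share of haemoglobin genes (29.7% of its FPKM, against 10.4% to 20.1% in the other 5), whose part in that value was not tested.

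At E16.5 the levels were closer together. Hand1 was 8.69, 9.54 and 8.87 FPKM in the F/+ ventricles and 7.87, 8.82 and 9.47 FPKM in the F/F ventricles, which overlap. Hand2 was 52.92, 49.37 and 45.99 FPKM in F/+ and 44.44, 44.21 and 40.29 FPKM in F/F, so every F/F ventricle lay below every F/+ ventricle. Hand1 made up 14.1% to 19.0% of the summed HAND level in these 6 libraries.

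In 8-week cardiomyocytes Hand1 was all but undetected while Hand2 stayed near its fetal level. Hand1 was listed at 0 in all 5 +/+ libraries, at 0 and 0.21 FPKM in D/+, and at 0, 0, 0.05, 0, 0.06 and 0.08 FPKM in D/D. Hand2 was 42.85, 35.78, 58.61, 58.3 and 87.98 FPKM in the libraries labelled +/+, the last of these being replicate 5, which had no Hand2os1. It was 26.46 and 65.43 FPKM in D/+ and 79.82, 81.18, 71.87, 64.69, 59.49 and 69.42 FPKM in D/D. The control values spread over more than the whole range of the D/D values. As a check of the tissue, the 11 cardiomyocyte markers had summed levels of 32019 to 43511 FPKM in the 13 libraries, with at most 1 marker at 0. Markers of endothelium were also present (8 of 8 above 0 in every library, summed 100.5 to 447.8 FPKM), so Hand2 here need not come from cardiomyocytes alone, and the part of other cells was not tested.

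**Figure D1:**
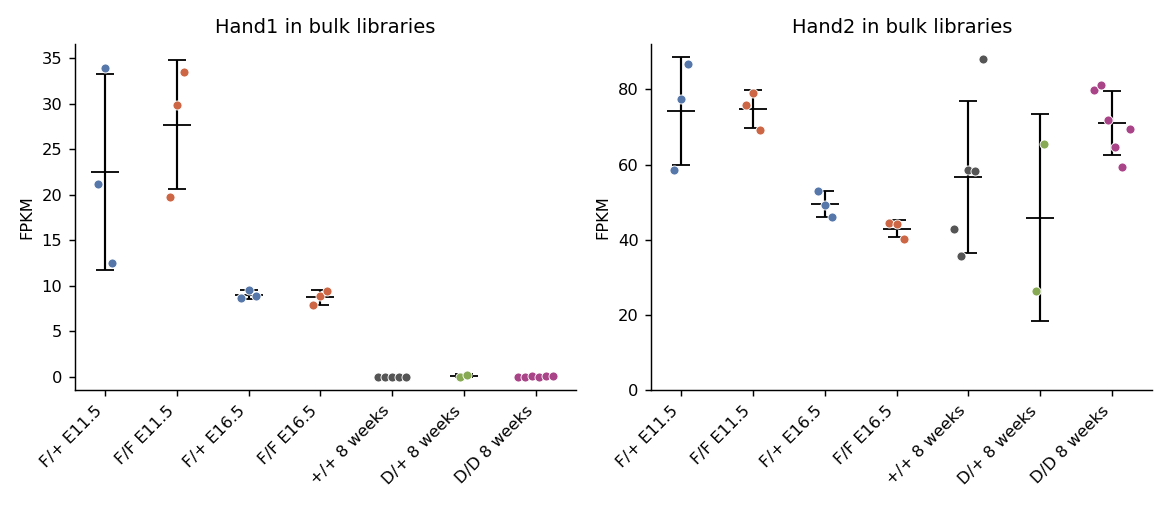
Hand1 (left) and Hand2 (right) in FPKM for each of the 25 bulk libraries, by genotype and stage; points are libraries, the long bar is the group mean and the short bars mark 1 SD on each side. Hand1 goes from a mean of 22.5 FPKM in F/+ hearts at E11.5 to 0 in +/+ cardiomyocytes at 8 weeks, while the group means of Hand2 stay between 43.0 and 74.7 FPKM.

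Ranked by group mean, Hand1 ran from F/F hearts at E11.5 (27.7 FPKM ± 7.12, SD, n = 3) and F/+ hearts (22.5 ± 10.8, n = 3) through F/+ ventricles (9.03 ± 0.448, n = 3) and F/F ventricles (8.72 ± 0.805, n = 3) to the 8-week groups near 0. Its values separated without overlap between E11.5 and E16.5 and between E16.5 and 8 weeks, and overlapped between genotypes within a stage. Hand2 ran from 74.7 ± 5.03 (F/F, E11.5, n = 3), 74.3 ± 14.3 (F/+, E11.5, n = 3), 71.1 ± 8.45 (D/D, n = 6) and 56.7 ± 20.1 (+/+, 8 weeks, n = 5) to 49.4 ± 3.47 (F/+, E16.5, n = 3), 45.9 ± 27.6 (D/+, n = 2) and 43.0 ± 2.33 FPKM (F/F, E16.5, n = 3). Each neighbouring pair in that order overlapped. Without the library labelled +/+ replicate 5 the +/+ mean was 48.9 ± 11.4 FPKM (n = 4), just below that of the F/+ ventricles. Bulk values cannot tell fewer cells of a type from less RNA per cell.

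Tests of stage used limma on log2(FPKM + 1), with p-values adjusted over all genes by the Benjamini-Hochberg method. Stage cannot be told apart here from the tissue taken, whole heart at E11.5, ventricle at E16.5 and isolated cardiomyocytes at 8 weeks. In F/+ libraries Hand1 fell by 1.13 from E11.5 heart to E16.5 ventricle on this log2 scale (SE 0.27, limma adjusted p = 0.0049), its mean level going to 0.401 of the earlier one, with no overlap between the 3 and 3 libraries. Hand2 differed by -0.56 (SE 0.27, limma adjusted p = 0.113) with a mean at 0.666 of the earlier one; its libraries did not overlap either, but the fitted difference did not pass. It did pass with the replicate block (limma adjusted p = 0.0356), without haemoglobin genes (-0.877, limma adjusted p = 0.0217) and without the 8-week +/+ replicate 5, which shares the fit (limma adjusted p = 0.0334), so that call depends on the setting. In this contrast 44.6% of genes passed the test and 59.0% had groups that did not overlap, so a difference of stage is common. In F/F libraries, a contrast added after the data were seen, Hand1 fell by 1.53 (SE 0.28, limma adjusted p = 6.2e-04) and Hand2 fell by 0.78 (SE 0.14, limma adjusted p = 5.4e-04), where 50.0% of genes passed and 58.5% did not overlap. An exact permutation test cannot go below p = 0.1 with 3 against 3, and each of these 4 comparisons reached it.

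From E16.5 F/+ ventricle to 8-week +/+ cardiomyocytes Hand1 fell from 8.69 to 9.54 FPKM to a listing of 0 in every library (limma adjusted p = 1.4e-07; exact permutation p = 0.0179, the smallest that 3 against 5 can give). Hand2 differed by 0.13 in log2 terms (SE 0.24, 95% interval -0.40 to 0.66, limma adjusted p = 0.655). Without the library labelled +/+ replicate 5 that difference was -0.043. In this contrast 67.4% of genes passed and 65.6% did not overlap. Hand1 was thus among the many genes that changed, and Hand2 was not shown to change. The median gene moved by -0.15 in the F/+ contrast of E11.5 with E16.5 and by -0.36 in that of E16.5 with 8 weeks. After median-ratio scaling, which brings those shifts to 0.01 and 0.02, Hand2 differed by -0.37 and 0.60 and Hand1 by -0.93 in the first of them, with the same calls.

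The effect of allele F on either gene was asked in hearts at E11.5 and in ventricles at E16.5. At E11.5 the F/F minus F/+ difference was 0.36 for Hand1 (SE 0.33, 95% interval -0.37 to 1.09) and 0.03 for Hand2 (SE 0.18, -0.37 to 0.42), both with a limma adjusted p of 0.999 and exact permutation p of 0.7 and 0.9. Neither passed; 0.00870% of the 11491 genes tested did, which is 1 gene, Mir6236, named after its value was seen, and 502 had an unadjusted p under 0.05. The 2 groups did not overlap for 9.23% of genes, and both HAND genes overlapped. The intervals leave room for a change of Hand1 in either direction and for a change of Hand2 of up to 0.42 in log2 terms. Leaving out F/+ replicate 3, the heart rich in haemoglobin, brought the Hand1 difference to 0.011, and leaving out F/+ replicate 2 to 0.697.

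At E16.5 the difference was -0.05 for Hand1 (SE 0.11, 95% interval -0.30 to 0.21) and -0.20 for Hand2 (SE 0.09, -0.40 to 0.00). Neither passed (limma adjusted p 0.9999 for both, unadjusted p 0.0543 for Hand2), and 0.00935% of genes did, again Mir6236 alone, with 281 genes under an unadjusted p of 0.05. The exact permutation p was 0.6 for Hand1 and 0.1 for Hand2, the smallest possible. The separation of Hand2 is shared with 6.78% of genes, whose groups did not overlap either. The share of haemoglobin genes was 0.651% to 0.835% in the F/+ and 0.998% to 2.42% in the F/F ventricles, also without overlap. With those genes removed and the columns rescaled the Hand2 difference was -0.18 (SE 0.09, limma adjusted p = 0.999). Tested directly, the effect of F at E16.5 minus that at E11.5 was -0.41 for Hand1 (SE 0.40) and -0.22 for Hand2 (SE 0.20), with limma adjusted p of 0.999 for both, while 0.00875% of genes passed (Mir6236) and 493 had an unadjusted p under 0.05. Both values rest on single E11.5 controls: Hand1 was -0.745 without F/+ replicate 2 and -0.0587 without F/+ replicate 3, and Hand2 was -0.342 without F/+ replicate 3 and -0.0632 without F/+ replicate 1.

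For allele D the comparison was between 6 D/D and 7 control cardiomyocyte libraries at 8 weeks. Hand1 was below the level needed for the test. Hand2 was higher in D/D by 0.48 in log2 terms (SE 0.22, 95% interval 0.01 to 0.96), a mean of 71.1 against 53.6 FPKM, but it did not pass (unadjusted p = 0.0479, limma adjusted p = 0.9999, exact permutation p = 0.0728). No gene passed in this contrast (0% of 10249; 175 had an unadjusted p under 0.05 by limma) and 0.0293% did not overlap. Against the 5 libraries labelled +/+ alone the difference was 0.38 (SE 0.24, limma adjusted p = 0.9998, exact permutation p = 0.104), where again 0% passed (104 under an unadjusted p of 0.05) and 0.0683% did not overlap. Leaving out single libraries kept the difference from all controls between 0.334 and 0.617, the highest without +/+ replicate 5. The difference from +/+ alone was 0.552 without that library (SE 0.226, limma adjusted p = 0.992).

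The 8-week libraries were divided into 2 sets by their expression over all genes, of 5 and of 8 libraries, separated by 862 genes. The next division separated 660 genes, so this is not the only way to split these libraries. The rule that requires at least 5 libraries a side was chosen after the values were seen. What distinguishes the sets is not labelled. In the smaller set Hand2 was 42.85, 35.78 and 26.46 FPKM in 3 controls and 79.82 and 81.18 FPKM in 2 D/D libraries, a mean of 35.0 against 80.5. In the larger set it was 58.61, 58.3, 87.98 and 65.43 FPKM in 4 controls and 71.87, 64.69, 59.49 and 69.42 FPKM in 4 D/D libraries, a mean of 67.6 against 66.4. The groups overlapped in the larger set and not in the smaller one. How many of all genes also separate 3 controls from 2 D/D libraries in the smaller set is not given here, so nothing is concluded from that separation. Without the library labelled +/+ replicate 5 the controls of the larger set had a mean of 60.8 FPKM (n = 3), and they still overlapped with D/D. With a term for the sets the difference of D/D from all controls was 0.446 (SE 0.204, limma adjusted p = 0.9999).

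**Figure D2:**
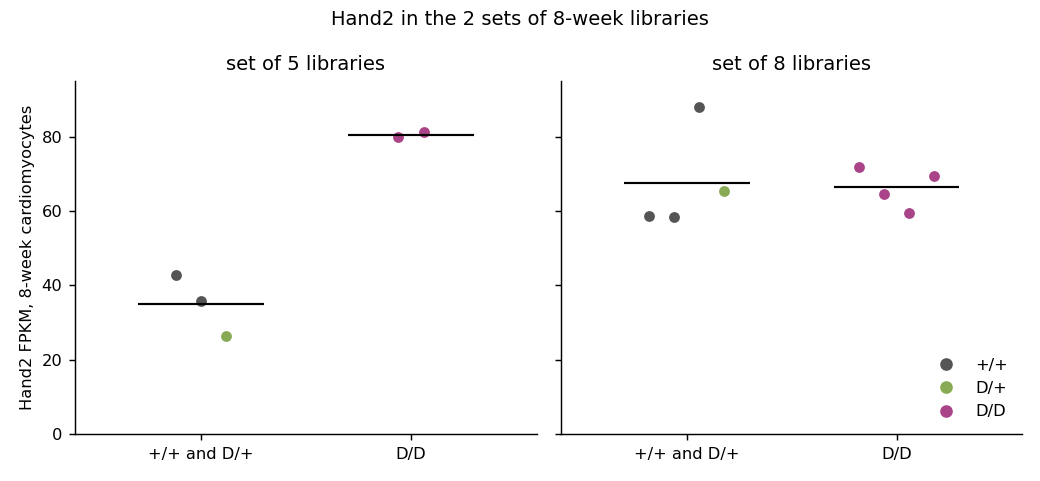
Hand2 in FPKM in 8-week cardiomyocytes, split into the 2 sets of libraries; points are libraries coloured by genotype and bars are means of controls (+/+ with D/+) and of D/D. In the set of 5 the controls (26.46 to 42.85 FPKM) lie below both D/D libraries, and in the set of 8 the groups overlap.

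Because FPKM is per transcript length, the balance of the 2 genes can be read within a library, as log2 of Hand1 + 1 over Hand2 + 1. It was -1.76 ± 0.82 (SD, n = 3) in F/+ and -1.43 ± 0.43 (n = 3) in F/F hearts at E11.5, and -2.33 ± 0.13 (n = 3) and -2.18 ± 0.19 (n = 3) in the ventricles at E16.5. F/F minus F/+ was 0.33 at E11.5 (exact permutation p = 0.6) and 0.15 at E16.5 (exact permutation p = 0.4). From E11.5 to E16.5 the balance moved by -0.56 in F/+ (exact permutation p = 0.4) and by -0.75 in F/F (exact permutation p = 0.1, the smallest possible). The E11.5 difference ran from -0.135 without F/+ replicate 3 to 0.632 without F/+ replicate 2, so its sign rests on single libraries. The E16.5 difference ran from 0.0482 without F/F replicate 3 to 0.237 without F/F replicate 1, and the F/+ move from -1.03 without E11.5 replicate 3 to -0.266 without E11.5 replicate 2. From E16.5 to 8 weeks every +/+ library lay below every F/+ ventricle (exact permutation p = 0.0179, the smallest possible), but with Hand1 listed at 0 the size of that move is set by the pseudocount (-3.46 with 1 and -6.64 with 0.1). At 8 weeks, where Hand1 is near 0, the balance follows Hand2 and the pseudocount, and D/D differed by -0.48 from all controls (exact permutation p = 0.0664) and by -0.34 from +/+ (exact permutation p = 0.156). With a pseudocount of 0.1 these were -0.375 (exact permutation p = 0.303) and -0.034 (exact permutation p = 0.911). At a pseudocount of 1, with the library labelled +/+ replicate 5 left out, they were -0.619 (exact permutation p = 0.00649) and -0.508 (exact permutation p = 0.0143). Over the 7 comparisons of the balance with all libraries kept, the Benjamini-Hochberg adjusted values ran from 0.125 to 0.6, so none of these passed.

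Genes around the HAND proteins were taken as lists by role, 38 of 39 of which were in the bulk table. They cover E-protein partners, Id inhibitors, the related factors Twist1 and Twist2, upstream signals and cardiac factors, cofactors and the phosphatase subunit Ppp2r5d, and genes placed downstream. With allele F at E11.5 none of the 37 tested passed (3 had an unadjusted p under 0.05; median difference 0.10, against 0.02 for all genes). The lowest p-values were those of Tbx20 (0.49, SE 0.17), a T-box factor of the chambers, Tmsb4x (0.49, SE 0.20), which codes for thymosin beta and is placed downstream of Hand1, and Gata4 (0.37, SE 0.15), a zinc finger partner of HAND2. At E16.5 none of 34 passed (1 under an unadjusted p of 0.05; median 0.04, against 0.00), with Edn1 (0.35, SE 0.15), the endothelin ligand upstream of Hand2 in the pharyngeal arches, its receptor Ednra (0.26, SE 0.12) and Irx4 (-0.16, SE 0.08), a ventricular factor, lowest in p. In D/D none of 30 passed and none had an unadjusted p under 0.05 by limma (median 0.07, against -0.01). Lowest in p were Edn1 (0.38, SE 0.24), Gata4 (0.20, SE 0.13) and Snai2 (-0.26, SE 0.18), a repressor active in cushion mesenchyme; against +/+ alone they were Tmsb4x (0.73, SE 0.51), Gata4 (0.20, SE 0.15) and the natriuretic peptide gene Nppb (0.69, SE 0.53). In the difference of the F effect between stages they were Tbx20 (-0.56, SE 0.19), Gata4 (-0.48, SE 0.17) and Ednra (0.70, SE 0.31). All of these had a limma adjusted p of at least 0.999.

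By stage many members passed the test, as did many of all genes. From E11.5 heart to E16.5 ventricle in F/+, 4 of 35 members rose and 16 fell (median -0.68, against -0.15 for all genes, of which 16.3% rose and 28.3% fell). Both Twist genes fell, Twist1 at -3.704 (SE 0.40), as did 3 of 4 Id genes, among them Id2 at -2.18 (SE 0.33). Among E proteins Tcf3 and Tcf12 fell while Tcf4 rose by 1.38 (SE 0.31). Of the upstream factors Gata5, a GATA factor of the endocardium, fell by 3.81 (SE 0.19) and Bmp4 fell by 2.42 (SE 0.40), while Tbx20 rose by 0.82 (SE 0.21) and Gata6 by 0.50 (SE 0.18). Of the downstream genes Nppb fell by 4.99 (SE 0.53) and Tmsb4x fell by 4.01 (SE 0.65), while Irx4 rose by 1.27 (SE 0.30). In F/F the same contrast had 5 of 36 higher and 20 lower (median -0.59, against -0.16 for all genes, of which 18.8% rose and 31.2% fell). From E16.5 to 8 weeks 5 of 35 rose and 19 fell (median -0.75, against -0.36 for all genes, of which 23.3% rose and 44.1% fell). The count called was thus close to the 67.4% of all genes. Among them were Nppb up by 5.62 (SE 0.47), the cofactor Fhl2, a LIM protein that represses HAND1, up by 3.77 (SE 0.21), Tbx20 at -2.51 (SE 0.19) and Gja5, a connexin of trabeculae and conduction cells, at -2.57 (SE 0.18). No member called in these contrasts changed its sign under upper-quartile or median-ratio scaling or without haemoglobin genes, but calls and the split changed. Median-ratio scaling gave 7 higher and 13 lower in F/+ from E11.5 to E16.5, 9 and 16 in F/F, and 6 and 11 from E16.5 to 8 weeks. Under it 17 of the 20 members called in F/+ were still called, 21 of 25 in F/F and 16 of 24 from E16.5 to 8 weeks. In F/+ the calls of Id1 and Tcf12 ended under both scalings. That of Tcf3 ended under median-ratio scaling, and that of Gata6 without haemoglobin genes.

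The single-cell libraries held 2563 (+/+) and 3469 (F/F) barcodes with medians of 13369 and 13403 UMIs, and 2503 and 3368 cells were kept in 18 clusters. The libraries had 18 barcode sequences in common. Clusters were named from fixed marker lists that hold neither HAND gene, and both genes were left out of the clustering. There was 1 library of each genotype, so no test of genotype is possible, and the exact 95% intervals given cover counting error only. UMIs are counted at transcript ends and so are not divided by length. CPM means UMIs of a gene per 1000000 UMIs of the same cells.

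In these cells Hand1 was concentrated in a few clusters and Hand2 spread over most non-blood cells. Cardiomyocyte-like cells gave 50.6% of the Hand1 UMIs in +/+ and 47.1% in F/F, and the outflow and second heart field-like cluster 25.9% and 31.1%. The mesenchymal-like class gave 33.9% and 28.1% of the Hand2 UMIs, cardiomyocyte-like cells 21.4% and 27.5%, endothelial and endocardial-like cells 15.2% and 21.1%, and the outflow-like cluster 10.9% and 6.86%. As a background for both genes, the erythroid-like cells, which should express neither, gave 0.289 CPM of Hand1 in +/+ and 1.36 in F/F (4 and 25 UMIs), and 1.30 and 4.42 CPM of Hand2 (18 and 81 UMIs). With median depths of 10909 and 11652.5 UMIs, 0.418% and 2.01% of them had a Hand1 UMI and 1.78% and 6.10% a Hand2 UMI. This background was higher in the library labelled F/F, and so were cardiomyocyte markers in the same erythroid-like cells (439 CPM in +/+ and 952 CPM in F/F, over 11 of 11 markers).

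**Figure D3:**
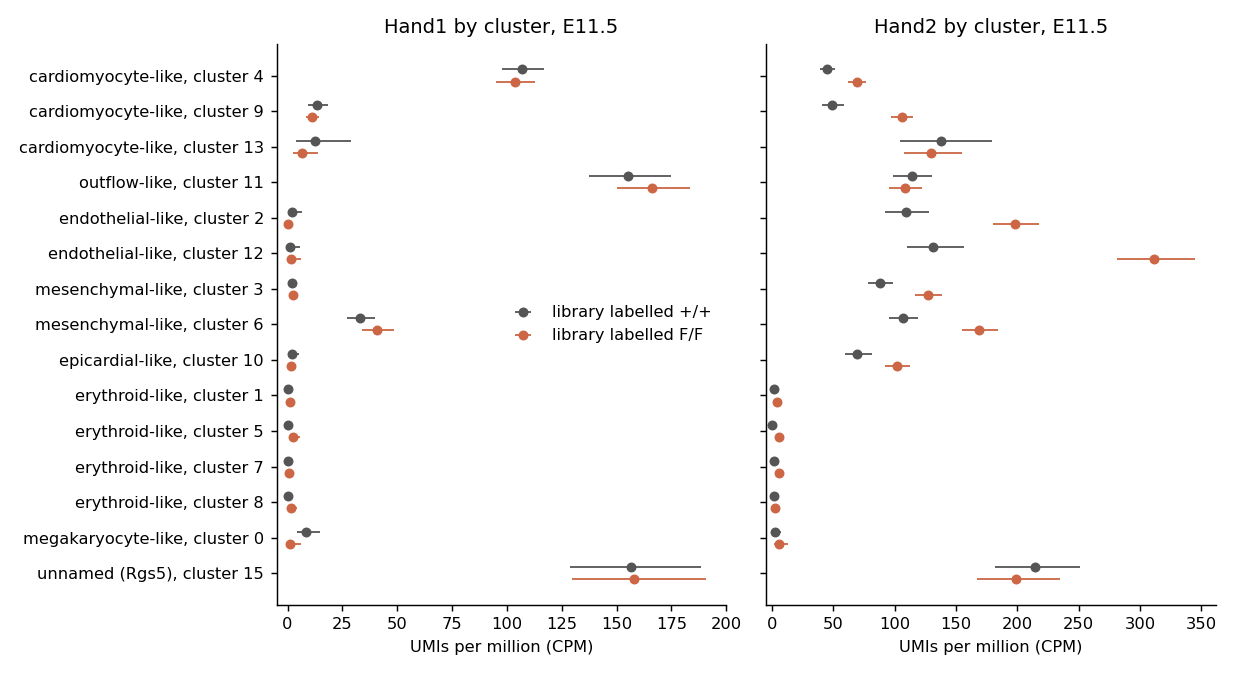
Hand1 (left) and Hand2 (right) in CPM for each cluster with at least 30 cells in both libraries; points are the 2 libraries and bars exact Poisson 95% intervals. Hand1 is above 100 CPM in clusters 4, 11 and 15, and Hand2 is above 45 CPM in every cluster shown other than the erythroid-like and megakaryocyte-like ones.

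Outflow and second heart field-like cells, cluster 11, had high levels of both genes. The cluster was led by 5 of 7 outflow markers and also by 11 of 11 cardiomyocyte markers, and it held 124 cells in +/+ and 173 in F/F. Hand1 was 155 CPM in +/+ and 166 CPM in F/F (log2 ratio 0.10, -0.13 to 0.33), and Hand2 was 114 and 108 CPM (-0.07, -0.35 to 0.20). For both genes the interval of the ratio included 0. Here 1.56% of the 4495 genes with enough UMIs (at least 100 over both libraries) were at least 1.5-fold higher in F/F. The most Hand1 UMIs in any cell, 22 in +/+ and 37 in F/F, were found in this cluster. Either gene was seen in 87.1% and 86.7% of its cells and both in 52.4% and 48.0%.

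The unnamed cluster 15, led by Rgs5, Ptn, Col1a2 and Cxcl12, matched the outflow muscle in Hand1 and exceeded it in Hand2. It had 62 and 61 cells. Hand1 was 157 and 158 CPM (log2 ratio 0.01, -0.39 to 0.41) and Hand2 was 214 and 199 CPM (-0.11, -0.45 to 0.23), the highest Hand2 of any cluster of the +/+ library that had at least 30 cells. In it 0 of 11 cardiomyocyte markers led, against 6 of 9 mesenchymal, 3 of 5 sinus venosus, 4 of 8 epicardial, 3 of 7 outflow and 2 of 6 atrial markers. Either gene was seen in 79.0% and 82.0% of its cells and both in 41.9% and 37.7%.

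Cardiomyocyte-like cells differed by cluster. Cluster 4, led by Nppa, Nppb and Gja1 with 6 of 6 trabecular markers, had 107 CPM of Hand1 in +/+ and 103 in F/F (log2 ratio -0.05, -0.23 to 0.13), and 45.2 and 68.9 CPM of Hand2 (0.61, 0.36 to 0.86). Cluster 9, led by Myl2 with 2 of 6 trabecular markers, had 13.2 and 11.2 CPM of Hand1 (-0.24, -0.87 to 0.41) and 49.0 and 106 CPM of Hand2 (1.11, 0.83 to 1.40). Cluster 13, with 6 of 6 atrial markers, had 5 and 6 UMIs of Hand1 and 138 and 130 CPM of Hand2 (-0.09, -0.56 to 0.40). Hand1 was thus far higher in the trabecular than in the other ventricular cluster in both libraries, while in the +/+ library Hand2 was alike in the 2 ventricular clusters and higher in the atrial one. Over the class as a whole Hand1 was 69.8 and 52.9 CPM (-0.40, -0.57 to -0.23) and Hand2 51.3 and 90.8 CPM (0.82, 0.65 to 0.995). Different clusters held the largest share of the class in the 2 libraries, cluster 4 with 269 of 477 cells in +/+ and cluster 9 with 365 of 784 in F/F, and within clusters 4 and 9 the interval of the Hand1 ratio included 0. In this class 0.683% of 8927 genes were at least 1.5-fold higher in F/F, and Hand2, at 1.77-fold, was among them.

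Endothelial and endocardial-like cells had Hand2 without Hand1. Hand1 gave 4 UMIs in 188 +/+ cells and 2 in 272 F/F cells (1.72 and 0.592 CPM, beside 0.289 and 1.36 CPM in erythroid-like cells), and Hand2 was 118 and 239 CPM (log2 ratio 1.01, 0.81 to 1.22). Cluster 12, led by Emcn and Plvap, went from 132 CPM in +/+ to 312 in F/F (1.24, 0.95 to 1.55), the highest Hand2 level of any cluster of at least 30 cells, and cluster 2, led by Stmn2 and Klf2, went from 109 to 198 (0.86, 0.59 to 1.14). At least 1.5-fold higher in F/F were 1.33% of 5695 genes, Hand2 with 2.02-fold among them.

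Mesenchymal-like cells had Hand2 in both of their clusters and Hand1 mainly in one. Cluster 6, led by Postn and Tgfbi, had 33.0 and 40.7 CPM of Hand1 (0.30, -0.08 to 0.69) and 107 and 169 CPM of Hand2 (0.67, 0.47 to 0.87). Cluster 3, led by Twist1 and Sox9, had 2.15 and 2.38 CPM of Hand1 (7 and 10 UMIs) and 87.8 and 127 CPM of Hand2 (0.54, 0.33 to 0.75). In the class 0.745% of 8317 genes were at least 1.5-fold higher in F/F, and Hand2, at 1.499-fold (96.9 and 145 CPM), fell just short. Epicardial-like cells, cluster 10, had 5 and 6 UMIs of Hand1 in 148 and 249 cells (2.16 and 1.52 CPM) and 69.6 and 102 CPM of Hand2 (0.55, 0.29 to 0.83), a fold of 1.47 where 1.10% of 5833 genes were at least 1.5-fold higher. Immune-like cells (18 and 32) had no Hand1 UMI and 0 and 1 of Hand2, so a limit of 3 cells allows a share of cells with a Hand1 UMI of up to 16.7% and 9.38% (exact Clopper-Pearson upper bounds 18.5% and 10.9%). In megakaryocyte-like cells (58 and 44) Hand1 gave 12 UMIs in +/+, of which 11 were in a single cell, and 1 in F/F, and Hand2 gave 4 and 5.

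**Figure D4:**
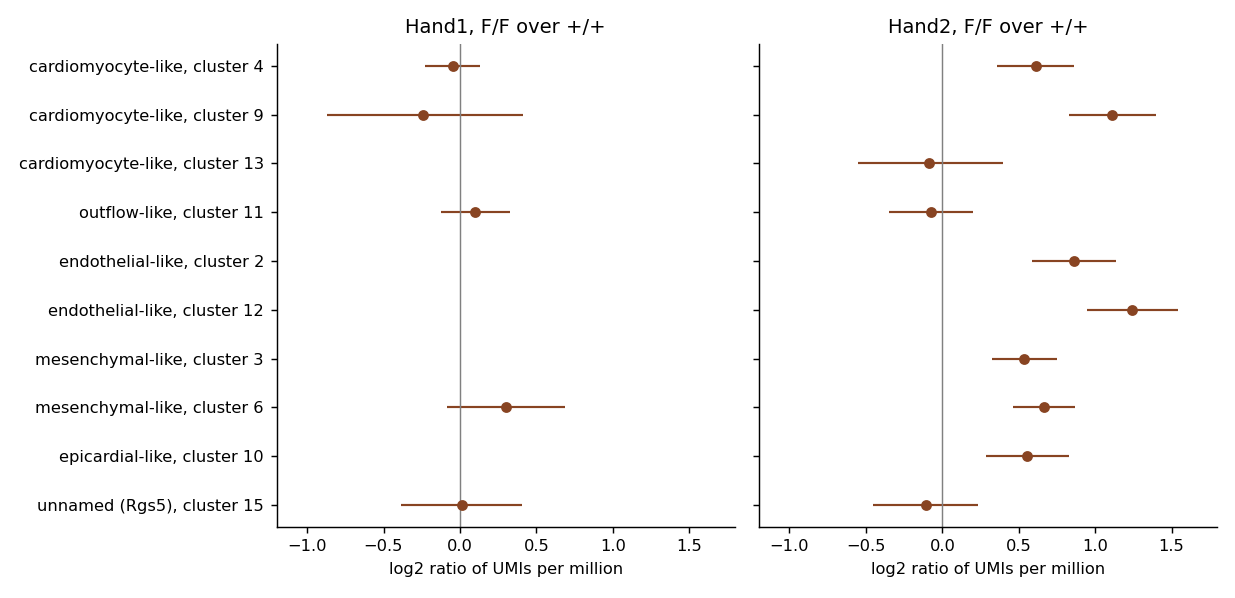
Log2 ratio of F/F to +/+ in CPM for Hand1 (left) and Hand2 (right) in each cluster of at least 30 cells per library outside blood; points are ratios and bars exact 95% intervals for counting error, with ratios left out where both libraries together had under 30 UMIs of the gene. Hand2 lies above 0 in clusters 2, 3, 4, 6, 9, 10 and 12 and its interval includes 0 in clusters 11, 13 and 15, whereas all Hand1 intervals shown include 0.

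Over all cells Hand1 was 28.2 CPM in +/+ (26.5 to 29.96) and 26.3 CPM in F/F (24.9 to 27.8), a log2 ratio of -0.10 (-0.22 to 0.02). Hand2 was 49.0 CPM (46.7 to 51.3) and 77.5 CPM (75.1 to 80.0), a ratio of 0.66 (0.58 to 0.74) or 1.58-fold. The Hand2 ratio was higher than that of 99.6% of genes, and 0.651% of 11830 genes were at least 1.5-fold higher. Hand1 made up 36.5% of HAND UMIs in +/+ and 25.3% in F/F. Subtracting each library's erythroid-like level left the Hand2 ratio at 0.79 in cardiomyocyte-like, 1.002 in endothelial and endocardial-like, 0.56 in mesenchymal-like and 0.52 in epicardial-like cells, beside 0.82, 1.01, 0.58 and 0.55 before subtraction. The F/F hearts of the bulk series at the same age had a Hand2 difference of 0.03 from F/+ hearts, with an interval of -0.37 to 0.42; the controls differ (F/+ there, +/+ here), as do the cells and the method, so the 2 values stand side by side and were not compared.

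How often cells held either gene or both depends on depth, so each cell was also thinned to 5000 UMIs, which left out 131 cells of +/+ and 155 of F/F. Unthinned, either gene was seen in 40.4% of all +/+ cells and 49.9% of F/F cells and both in 9.51% and 8.94%. Thinned, either was seen in 24.8% (23.1 to 26.6) and 32.0% (30.4 to 33.7), and both in 2.78% (2.16 to 3.53) and 2.74% (2.20 to 3.36). Cells with either gene were thus more frequent in the F/F library while cells with both were as frequent. The additional cells had Hand2 only, 15.9% in +/+ and 24.2% in F/F, against 6.16% and 5.10% with Hand1 only.

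By class the thinned share of cells with either gene was 40.0% in +/+ and 45.1% in F/F in cardiomyocyte-like cells, 38.4% and 51.5% in mesenchymal-like, 38.3% and 65.1% in endothelial and endocardial-like, and 29.7% and 43.8% in epicardial-like cells. In erythroid-like cells it was 0.570% and 2.88%, which sets the background. Unthinned, the same shares were 66.2% and 72.8% in cardiomyocyte-like, 67.2% and 79.3% in mesenchymal-like, 60.1% and 83.8% in endothelial and endocardial-like, 60.8% and 69.5% in epicardial-like and 2.19% and 7.95% in erythroid-like cells. In the outflow-like cluster the unthinned share was 87.1% and 86.7%. Thinned, it was 69.4% (60.4 to 77.5) and 53.9% (46.0 to 61.7), lower in F/F although CPM of both genes was level, so no order is read from it. Cells with both genes were most frequent in cluster 15 (29.0% and 21.3%) and in the outflow-like cluster (17.4% and 18.8%), beside 6.20% and 4.66% in cardiomyocyte-like cluster 4 and 4.62% and 9.55% in mesenchymal-like cluster 6. No thinned epicardial-like cell held both.

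**Figure D5:**
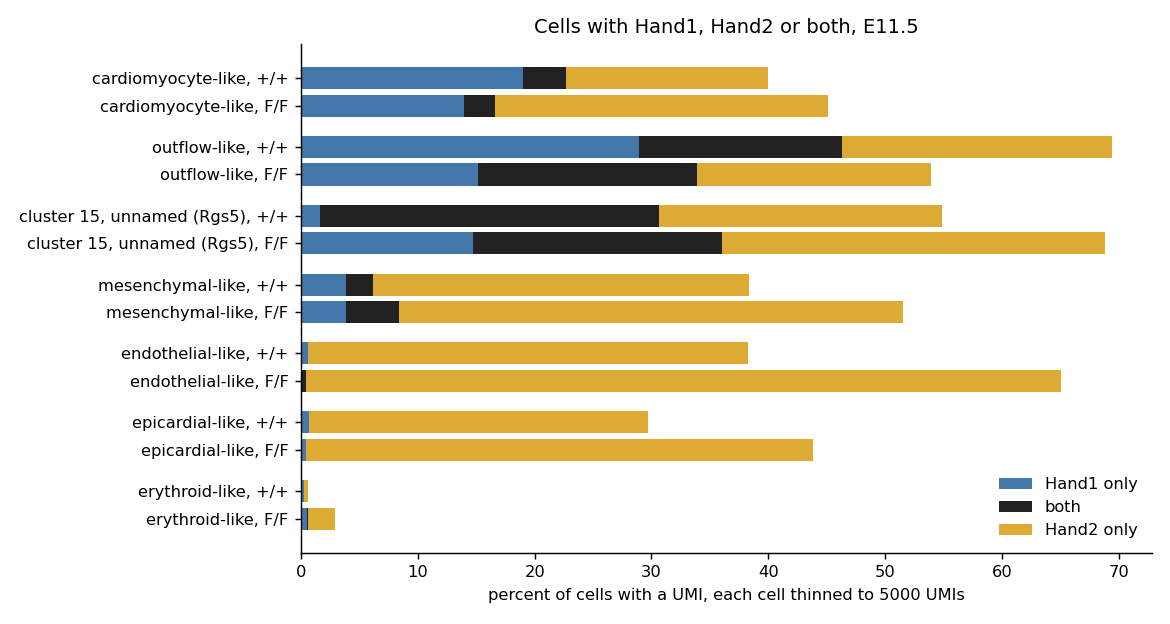
Percent of cells with a UMI of Hand1 alone (blue), both genes (black) or Hand2 alone (yellow) after each cell was thinned to 5000 UMIs, for each class and library. Cells with both reach 29.0% in cluster 15 and 17.4% in the outflow-like cluster of the +/+ library, and endothelial and endocardial-like cells are nearly all of the Hand2-only kind.

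Whether the 2 genes were found in the same cells was read from thinned cells of a class, as the share with Hand2 among cells with and without Hand1. In F/F cardiomyocyte-like cells Hand2 was seen in 16.1% of 124 cells with Hand1 (10.1 to 23.8) and in 34.2% of 623 cells without it (30.5 to 38.1). Within cluster 4 alone the F/F shares were 14.2% of 106 (8.14 to 22.3) and 30.1% of 216 (24.1 to 36.7), so after thinning the gap is present inside that cluster. In +/+ cardiomyocyte-like cells the shares were 16.2% of 105 (9.72 to 24.7) and 22.3% of 358 (18.1 to 27.0), and in cluster 4 they were 17.02% of 94 and 19.5% of 164, intervals that overlap. In the outflow-like cluster of F/F the order was the opposite, 55.4% of 56 cells with Hand1 (41.5 to 68.7) and 30.3% of 109 without (21.8 to 39.8), while in +/+ it was 37.5% of 56 and 43.1% of 65. In cluster 15 of +/+ 18 of 19 cells with Hand1 also held Hand2 (94.7%, 74.0 to 99.9), against 15 of 43 without (34.9%, 21.0 to 50.9), and in F/F the shares were 59.1% of 22 and 51.3% of 39. In cluster 6 they were 36.0% and 38.2% in +/+ and 52.8% and 55.2% in F/F. These are counts of cells from 1 library each and 1 random thinning, after which the direction differed between libraries in the outflow-like cluster. Unthinned, Hand2 was seen in 90 of 171 F/F cells of cluster 4 with Hand1 and in 177 of all 338, so no gap was present there. The same counts in +/+ were 72 of 140 and 126 of 269. For the outflow-like cluster they were 65 of 85 and 88 of 124 in +/+, and 83 of 107 and 126 of 173 in F/F. There the unthinned direction was the same in both libraries.

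Among network genes with at least 100 UMIs, 2 of 37 were more than 1.5-fold lower in F/F over all cells and none was higher; of all 11830 genes 2.10% were as far lower, so such genes were more common than those higher. They were Twist1 (83.0 and 42.6 CPM, log2 ratio -0.96), a related factor that can pair with HAND proteins, and Edn1 (62.7 and 25.1 CPM, -1.32). Both were also past that fold in mesenchymal-like cells (-0.84 and -1.501), in endothelial and endocardial-like cells (-0.80 and -1.196) and in epicardial-like cells (-0.63 and -1.27), where 2.86%, 2.88% and 3.45% of all genes were lower by that fold. Erythroid-like cells had 2.24 and 1.74 CPM of Twist1 and 1.08 and 1.04 CPM of Edn1. In cardiomyocyte-like cells, where 0.683% of all genes were higher by that fold and 2.01% lower, none was lower and 2 of 28 were higher. These were the inhibitors Id1 (21.8 and 38.2 CPM, 0.81) and Id3 (60.1 and 93.2 CPM, 0.63). Both were also higher in erythroid-like cells of the F/F library (Id1 6.72 and 12.1 CPM, Id3 13.2 and 26.8 CPM), whose part in the result was not tested. In mesenchymal-like cells, where 0.745% of all genes were higher by that fold, 1 of 30 was higher. It was the natriuretic peptide gene Nppa, a cardiomyocyte gene, with 4.57 and 11.497 CPM. Those values lay under its 5.203 and 13.4 CPM in the erythroid-like cells of the same libraries, whose part in the difference was not tested. In the outflow-like cluster 1 of 19 was lower, Gata4 (88.5 and 59.0 CPM, -0.59), where 2.80% of all genes were. All have 1 library per genotype and no test.

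Likeness of pattern was measured as a description, by Pearson's r on log2 values. Across the 25 bulk libraries, which share stages, genes most like Hand1 among 7356 included Igf2bp3 (r = 0.996), Igfbp2 (0.996), Igfbpl1 (0.993) and Mex3a (0.993), whose group means were at least 17.92 FPKM at E11.5 and at most 0.212 FPKM at 8 weeks. Those most like Hand2 included Scand1 (0.748), C030037D09Rik (0.719), Pgp (0.693) and Rpp21 (0.666). Hand1 and Hand2 had r = 0.11 with each other. Across 31 sums of cells by cluster and library, which share libraries and depth, those most like Hand1 among 8419 were Psd (0.923), Cxcl12 (0.919), Efs (0.850), Synpo2 (0.848) and Esrrg (0.846). Those most like Hand2 were Igf2 (0.978), Gpx7 (0.971), Tead2 (0.971), Maged2 (0.971) and Wbp1 (0.970). Hand1 and Hand2 had r = 0.53 over the same sums.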

How the data were processed

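Bulk values are FPKM as deposited by the authors; no header names the unit, which was inferred from the values, and read depth is unknown. The submitters' processing notes name CASAVA, TopHat, TopHat2 2.0.11 and mm9 (bulk) and Cell Ranger and mm10 (single cells); roles, strand and annotation are not given in the sources used here. The labels' protocols name a stranded poly(A) kit. Single-cell values are UMI counts as deposited by the authors, 38302756 (+/+) and 51432292 (F/F) in all.

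Bulk: identical repeated lines counted once and 1 gene with a blank cell left out, 24025 genes, a pseudocount of 1 before log2, a minimum mean of 1 FPKM over the fit, limma 3.58.1 with an intensity trend in R 4.3.3, Benjamini-Hochberg threshold 0.05, and two-sided exact permutation tests. The pseudocount shrinks differences of low genes. Genotype was fitted within each stage; contrasts of stage shared 1 fit of F/+ E11.5, F/+ E16.5 and +/+ 8-week libraries, and the interaction and the F/F stage contrast 1 fit of the 12 embryonic libraries. On simulated data the E11.5 fit recovered 40% of log2 changes of 1 and 89% of those of 2, the E16.5 fit 80% and 99%, the 8-week fit 77% and 95%.

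Single cells (scanpy 1.11.5): at least 500 genes per barcode, 52 and 96 highest doublet scores removed at 0.8% per 1000 barcodes because scrublet's own threshold marked 0.0498%, 2000 variable genes, 30 components, 15 neighbours, Leiden resolution 1. A cluster was named when at least 3 markers and 2/3 of a list led (1.5-fold over the other clusters' mean, with 20 CPM added) and no other list held as many of its top 10 genes, a rule set after the clusters were seen. CPM have exact Poisson, ratios exact conditional and shares exact Clopper-Pearson 95% intervals.

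Genes, lists and tests were chosen with earlier results of these data known. Named genes were both HAND genes everywhere, network genes called or the 3 lowest in p, and the 5 most alike (means of at least 5 FPKM, or at least 500 UMIs), of which some are not reported here. Groups followed the labels. Alternatives were another pseudocount, no filter, a single fit, the replicate block, scalings, a Y-linked covariate, left-out libraries, a term for the 8-week sets and, for cells, other filters, resolution, scaling and thinning. Added after seeing the data were removal of haemoglobin genes, the balance within 8-week sets, subtraction of the erythroid-like level and the F/F stage contrast. The rules for the 8-week sets and for naming clusters were also set then.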

Additional observations from a re-analysis of the deposited data

How the results depend on the processing

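Under the alternatives 366 recomputed values kept their direction and side of the threshold or moved by less than their error, among them the mesenchymal-like Hand1 ratio, near 0, which was -0.0257 with doublets kept. A further 9 reversed their direction, 5 became stronger and 3 moved by more. The E11.5 Hand2 difference, near 0, changed sign with upper-quartile scaling (-0.0068), with a covariate for Y-linked genes (-0.0135) and without haemoglobin genes (-0.0513), and ran from -0.133 to 0.145 over left-out libraries. Over left-out libraries the Hand1 difference at E16.5 ran from -0.103 to 0.016 and the balance of both genes at E11.5 from -0.135 to 0.632. The balance of D/D against control ran from -0.619 to -0.336 and against +/+ from -0.508 to -0.190. These last 2 were lowest without +/+ replicate 5 (exact permutation p = 0.00649 and 0.0143). Over all alternatives the lowest Hand1 difference at E16.5 was -0.120, and the balance of D/D against +/+ reached -0.034 with a pseudocount of 0.1. The Hand2 stage difference in F/+ passed with the replicate block (-0.561, limma adjusted p = 0.0356), without haemoglobin genes (-0.877, 0.0217) and without the 8-week +/+ replicate 5, which shares the fit (0.0334), and ran from -0.720 to -0.442 over left-out libraries. From E16.5 to 8 weeks the Hand2 difference changed sign with the replicate block (-0.136) and ran from -0.043 to 0.275 over left-out libraries. Thinning to 5000 UMIs moved the log2 ratio of Hand1 to -0.69 in cardiomyocyte-like and 0.72 in mesenchymal-like cells, and that of Hand2 to 0.88 in epicardial-like cells. The cause was not tested in any of these.

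Not every pair of same-numbered libraries deviated together (correlations -0.0356, -0.0174 and 0.0821 at E11.5, -0.435 to 0.0420 at E16.5, and 0.528, 0.418, 0.213, -0.0432 and -0.104 at 8 weeks), so they were taken to share only a number, and the block changed no other call of either gene. Genes called with allele F at E11.5 numbered 1, or 24 with all 25 libraries in a single fit and 2 with the replicate block; at E16.5 0 to 3, 3 with the Y-linked covariate; in the interaction up to 9 without F/+ E11.5 replicate 3, 6 with all libraries in a single fit and 4 without a filter. At 8 weeks none was called under any alternative run. The outflow-like class could not be given with at least 1000 genes per barcode or with both genes among those clustered, since no cluster took that name. No value of a HAND gene or of their balance stood apart in the 5 group checks that 4 to 10 libraries allowed. Read depth limits are unknown for FPKM; 1 library per genotype limits the cells.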
